A study of Homo sapiens with 4 samples.

Results

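Microtubule plus-end genes encode proteins that ride on, lengthen or anchor the growing ends of microtubules. Of 10 such genes listed for HCT116 cells, 9 were found on the arrays. They were MAPRE1, MAPRE2, MAPRE3, CLIP1, CLASP1, CLASP2, CKAP5, SLAIN2 and DCTN1. They are among 22411 genes that the arrays read through probes annotated to that gene alone. Each gene is read through a transcript cluster, the set of probes that the array design assigns to one locus. Each of the 9 genes had 1 such cluster whose annotation named that gene and no other. The tenth gene, STMN1, encodes the tubulin-sequestering protein stathmin. Its cluster also names a microRNA locus, so its signal cannot be given to STMN1 and no value is reported for it.

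HCT116 is an established human colon cancer cell line. One group of 2 arrays held RNA of HCT116 cells transfected with an siRNA against CDK8, the kinase of the Mediator complex that regulates RNA polymerase II. The other 2 arrays held RNA of HCT116 cells transfected with a control siRNA. Both groups were transfected for 48 h with 50 nM siRNA and the lipid reagent RNAiMAX, and the labels call the 2 arrays of each group biological replicates. Whether these came from different cultures is not stated. All p-values therefore measure only the spread between these samples, which may be technical. With 1 group carrying CDK8 siRNA, loss of CDK8 and any other effect of that siRNA cannot be told apart.

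A microtubule grows mainly at its plus end, where tubulin dimers are added. The end-binding proteins encoded by the MAPRE genes recognise the young lattice behind the tip, bind to it without a motor and recruit most other plus-end proteins through short peptide motifs or CAP-Gly domains. Polymerases and rescue factors then speed growth or restart it after shortening, and dynactin and adaptor proteins link the tip to motors, the cell cortex and kinetochores. In dividing epithelial cells the same proteins help to position the mitotic spindle and attach it to chromosomes.

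Signals are log2 values from RMA, a method that corrects background, equalises the arrays and summarises the probes of each cluster, so that a step of 1 equals a 2-fold difference. CDK8 itself read 7.25 and 7.45 on the CDK8 siRNA arrays, against 9.99 and 10.04 on the control siRNA arrays, a log2 difference of -2.67 ± 0.092 (standard error from limma, n = 2 per group; adjusted p = 4.43e-05). Across the 13956 genes tested, the correlation was 0.997 between the CDK8 siRNA arrays, 0.998 between the control siRNA arrays and 0.963 to 0.965 between groups. The epithelial markers EPCAM, KRT8, KRT18, KRT19 and CDH1 reached the filter level of 4.28 and CDX2 did not, and of these 5 genes 3 were called higher, KRT18 was called lower and KRT8 was not called. Summed over the 6 epithelial markers, the log2 signal was 62.52 to 63.61 on the CDK8 siRNA arrays and 59.47 to 59.70 on the control siRNA arrays. Most of that gap came from CDH1, the E-cadherin gene, which rose 7.11-fold (2.83 ± 0.114), beside 0.65 for EPCAM, 0.43 for KRT19, 0.05 for KRT8, -0.34 for KRT18 and -0.14 for CDX2. KRT19 did not pass without CDK8 siRNA replicate 1 (adjusted p = 0.0749) or without control siRNA replicate 1 or 2 (adjusted p = 0.204 and 0.237, all by limma). KRT18 passed in none of the 4 fits that leave out 1 array (adjusted p from 0.0827 to 0.201 by limma). Summed signals of the 5 measured fibroblast markers were 20.47 to 20.75 with CDK8 siRNA and 19.45 to 19.72 with control siRNA, and those of the 5 blood cell markers 22.98 to 23.70 and 21.53 to 21.78. The largest differences within these sums were 0.59 for the fibroblast marker DCN, which lay under the filter level, and 1.36 for the blood cell marker CD68. The other fibroblast markers differed by 0.26 or less. The other blood cell markers ran from -0.05 to 0.335, the latter for CD3E, whose groups overlapped under the filter level. Of the fibroblast, blood cell, endothelial and neuronal markers, 1 of 5, 1 of 5, 0 of 4 and 0 of 5 reached that level. The 2 that did were the collagen gene COL1A1 and the macrophage gene CD68, both called higher, with differences of 0.26 ± 0.072 and 1.36 ± 0.109. COL1A1 likewise did not pass in any of these 4 fits (adjusted p from 0.0840 to 0.135 by limma). The part of these markers in the results was not tested.

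The plus-end genes were chosen by name around MAPRE1, which was selected on its signal difference in this same contrast. Their values are therefore a description, and no p-value is given for any of them. Differences are CDK8 siRNA minus control siRNA, each with its standard error from limma and n = 2 per group. In bulk RNA, fewer cells in a given state and less RNA per cell cannot be told apart.

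The end-binding family split. MAPRE1 encodes EB1, the end-binding protein that most others depend on for tip localisation in cultured cells. It read 9.82 and 9.73 on the CDK8 siRNA arrays, against 13.61 and 13.41 on the control siRNA arrays. Both CDK8 siRNA arrays lay far below both control siRNA arrays. The log2 difference was -3.74 ± 0.095, or a signal 13.3-fold lower, which leaves 7.51% of the control mean on a linear scale. Over the 4 possible pairs of 1 CDK8 siRNA array and 1 control siRNA array, the difference ran from -3.59 to -3.88. Of the 13956 genes tested, MAPRE1 had the second lowest difference, after the transcription factor gene SOX4 at -3.93.

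MAPRE2 encodes EB2 (also called RP1), a paralog that binds plus ends more weakly and recruits fewer partners. Its signals were 9.83 and 9.75 on the CDK8 siRNA arrays, against 8.25 and 8.17 on the control siRNA arrays. The groups were apart in the opposite direction to those of MAPRE1. The log2 difference was 1.58 ± 0.076, a signal 2.99-fold higher, and over the 4 array pairs it ran from 1.5 to 1.66. It lay at the 98.3 percentile of the differences of all tested genes.

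MAPRE3 encodes EB3, the paralog known best from brain and muscle. It was read at 6.08 and 6.03 on the CDK8 siRNA arrays, against 5.88 and 5.94 on the control siRNA arrays. All 4 values lay within 0.20 of each other, with both CDK8 siRNA arrays slightly above both controls. Its log2 difference was 0.15 ± 0.072, with a 95% interval from -0.034 to 0.324. The 3 paralogs are read by different probes, so their levels are not set against each other and only their differences are.

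**Figure D1:**
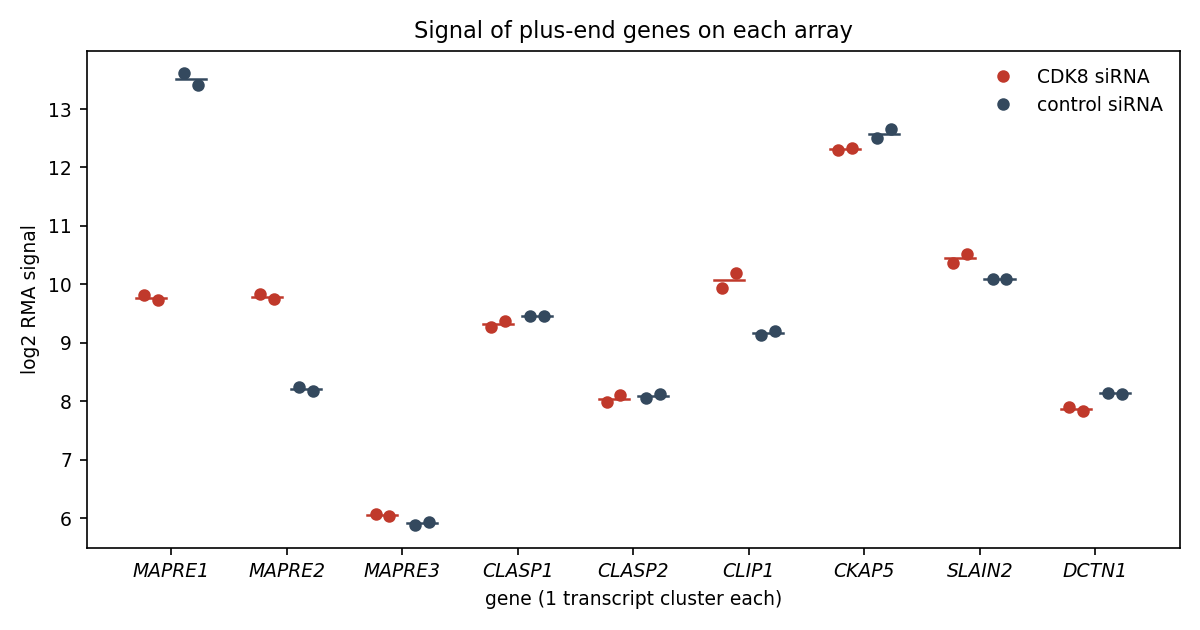
Log2 RMA signal (vertical axis) of the 9 plus-end genes (horizontal axis) on each array, CDK8 siRNA in red to the left of control siRNA in dark blue; points are single arrays and bars are group means (n = 2). MAPRE1 is separated downward by a mean of 3.74 while MAPRE2 (1.58) and CLIP1 (0.90) are separated upward, and the other genes differ by 0.35 or less in either direction.

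Promoter windows of both paralogs are shown because their signals differed in opposite directions. They are RefSeq sequences of GRCh38.p14, reaching from 250 bases before to 50 bases after an annotated transcript start, and capitals mark every match on either strand to the 7 motifs searched (the CCAAT box, the cell cycle cores TTTGAA and TTCGAA, the E2F sites TTTCGCGC and TTTGGCGC, the GC box core GGGCGG and the TATA box TATAAA), with overlapping matches merged. The windows lie at chr20:32819704-32820003 for MAPRE1, and at chr18:34976777-34977076 and chr18:35041163-35041462 for the 2 annotated MAPRE2 starts, all on the plus strand.
MAPRE1: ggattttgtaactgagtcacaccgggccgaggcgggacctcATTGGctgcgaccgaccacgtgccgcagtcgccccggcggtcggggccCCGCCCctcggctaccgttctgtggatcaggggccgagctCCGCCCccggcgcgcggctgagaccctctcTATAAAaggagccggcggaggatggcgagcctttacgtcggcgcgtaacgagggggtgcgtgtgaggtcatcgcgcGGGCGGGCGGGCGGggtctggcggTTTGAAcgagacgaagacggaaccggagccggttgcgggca
MAPRE2, first start: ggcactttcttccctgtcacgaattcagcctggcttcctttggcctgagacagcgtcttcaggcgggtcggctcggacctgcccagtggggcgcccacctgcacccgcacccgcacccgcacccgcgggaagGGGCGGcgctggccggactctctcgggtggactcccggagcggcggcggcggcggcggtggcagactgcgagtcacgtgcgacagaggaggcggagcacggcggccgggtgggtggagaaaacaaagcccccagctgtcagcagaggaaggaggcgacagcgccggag
MAPRE2, second start: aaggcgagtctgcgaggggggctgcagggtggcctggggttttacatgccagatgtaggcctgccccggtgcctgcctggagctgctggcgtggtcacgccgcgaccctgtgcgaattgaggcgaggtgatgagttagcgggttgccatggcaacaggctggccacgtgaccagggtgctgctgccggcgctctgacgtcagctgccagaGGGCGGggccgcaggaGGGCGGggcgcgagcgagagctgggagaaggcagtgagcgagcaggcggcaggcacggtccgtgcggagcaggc

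The MAPRE1 window held 5 copies of GGGCGG, 3 of them overlapping, the core of the GC box. It also held CCAAT at -209, TATAAA at -91 and TTTGAA, a core of cell cycle promoters, at 10, each position counted from the start to the leftmost base. The MAPRE2 windows held 1 and 2 copies of GGGCGG and no match to the other 6 motifs. Among 35116 windows of the same length in RefSeq, GGGCGG was present in 45.0%, CCAAT in 34.6%, TTTGAA in 15.2% and TATAAA in 11.5%. The array signal does not tell which MAPRE2 start was used. Over the 18 windows of all 10 listed genes, GGGCGG was in 10, CCAAT in 8, TTTGAA in 4 and TATAAA in 2. CCAAT also lay in windows of SLAIN2 (difference 0.35), MAPRE3 (0.145), CLASP1 (-0.135), CKAP5 (-0.26), CLASP2 (-0.045) and STMN1, which has no value. Windows of CKAP5 and CLASP2 held TTTGAA as well. The CLIP1 and SLAIN2 windows each held 4 copies of GGGCGG, at differences of 0.90 and 0.35. Windows of MAPRE3, CKAP5, DCTN1 and STMN1 held GGGCGG too. A link between motifs and differences was not tested. A match is a run of letters and not a measured binding site.

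Of the 6 plus-end genes outside the MAPRE family, CLIP1 had the largest difference in size. It encodes CLIP-170, a CAP-Gly protein that tracks plus ends and links them to dynactin and membranes. The CDK8 siRNA arrays read 9.94 and 10.20, against 9.13 and 9.21 on the control siRNA arrays. Both CDK8 siRNA arrays were higher, though they differed from each other by more than the control arrays did. The log2 difference was 0.90 ± 0.106, or 1.87-fold, and it ran from 0.73 to 1.07 over the array pairs. An antisense transcript of the locus, CLIP1-AS1, sat at the filter level with a mean of 4.28 and a difference of 0.27 ± 0.104 that did not pass (adjusted p = 0.0846 by limma).

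SLAIN2 encodes a protein that joins end-binding proteins to the polymerase CKAP5. Signals of 10.37 and 10.52 were read with CDK8 siRNA, against 10.10 and 10.09 with control siRNA. The groups did not overlap, and the control arrays were almost equal. The log2 difference was 0.35 ± 0.082, or 1.27-fold. Its partner CKAP5, known as ch-TOG, adds tubulin dimers to the growing tip and is needed for bipolar spindles. CKAP5 read 12.30 and 12.34 with CDK8 siRNA, against 12.51 and 12.65 with control siRNA. It lay on the low side without overlap, at a log2 difference of -0.26 ± 0.081.

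The CLASP genes encode rescue factors that restart growth after a microtubule begins to shorten. CLASP1 read 9.27 and 9.38 on the CDK8 siRNA arrays, against 9.46 and 9.46 on the control siRNA arrays. Both CDK8 siRNA arrays were lower by a small step, with a log2 difference of -0.14 ± 0.076 and a 95% interval from -0.323 to 0.053. CLASP2 read 7.98 and 8.11 with CDK8 siRNA, against 8.05 and 8.13 with control siRNA. Its groups overlapped, and the log2 difference of -0.05 ± 0.082 had a 95% interval from -0.249 to 0.159.

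DCTN1 encodes p150Glued, the dynactin subunit whose CAP-Gly domain binds the tails of end-binding proteins and CLIP-170. It read 7.90 and 7.83 with CDK8 siRNA, against 8.15 and 8.13 with control siRNA. The groups were apart by at least 0.23, and the log2 difference was -0.28 ± 0.071, or 1.21-fold lower. The antisense cluster DCTN1-AS1 lay under the filter level, with means of 3.46 and 3.40 in the CDK8 siRNA and control siRNA groups.

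**Figure D2:**
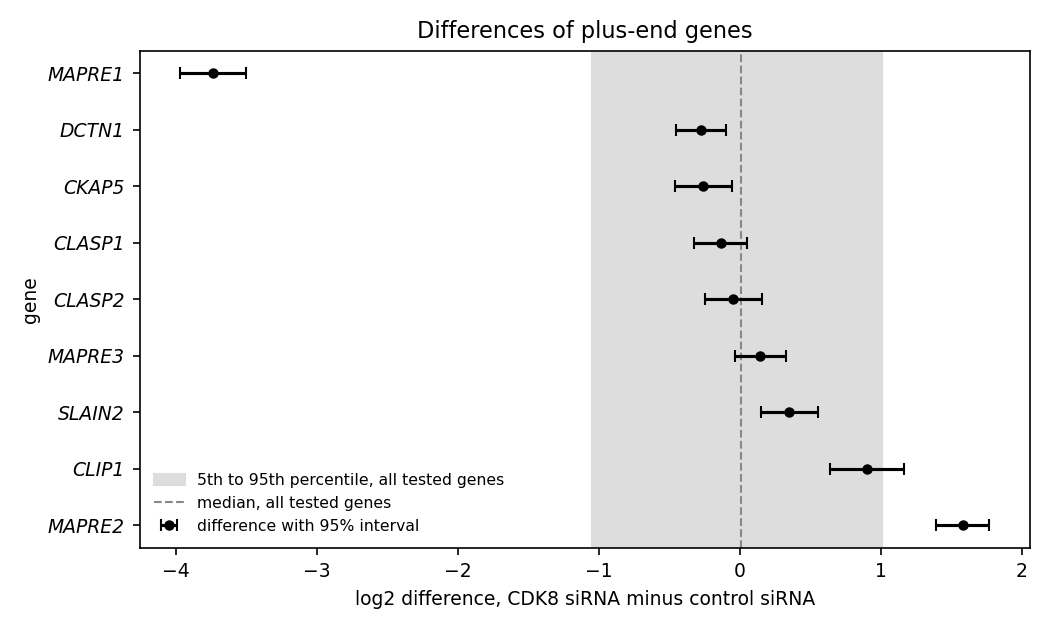
Log2 difference of CDK8 siRNA minus control siRNA (horizontal axis) for the 9 plus-end genes (vertical axis), with 95% intervals from limma (n = 2 per group); the grey band spans the 5th to 95th percentile of all 13956 tested genes, -1.05 to 1.01, and the dashed line is their median, 0.005. MAPRE1 and MAPRE2 lie outside the band on opposite sides and the other 7 genes have their differences inside it.

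All 9 genes had mean signals above the filter level, from 5.98 for MAPRE3 to 12.45 for CKAP5, so each was part of the fit. At an adjusted p under 0.05 in limma, 3 of the 9 were called higher (MAPRE2, CLIP1 and SLAIN2), 3 lower (MAPRE1, CKAP5 and DCTN1) and 3 were not called, where 49.5% of all tested genes were called. The 2 groups of arrays did not overlap in 8 of the 9 genes, 4 on the higher and 4 on the lower side, against 74.7% of all tested genes, 36.4% higher and 38.3% lower. Nothing is read from these counts, because the contrast was used in choosing the genes. CKAP5 was not called without the filter on low signal, with a trended prior in eBayes or with any 1 array left out. DCTN1 was likewise not called with any 1 array left out, and CLIP1 was not called without either control siRNA array. Of the fits that leave out 1 array, SLAIN2 was called only in that without CDK8 siRNA replicate 1. Each fit that leaves out 1 array called fewer of the 9 genes, and also fewer of all tested genes. How the loss of calls among the plus-end genes compares with that among all tested genes was not tested. The median difference of the 9 genes was -0.05, beside 0.005 for all tested genes. Their range, from -3.74 to 1.58, was set by the 2 end-binding paralogs.

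The genes whose signals followed those of MAPRE1 most closely over the 4 arrays were found by the Euclidean distance between mean-centred log2 values. They were the polarity scaffold gene MPP7 at a distance of 0.194, the cell cycle gene PRR11 at 0.298, SOX4 at 0.345, the kinase gene PAK2 at 0.420 and the receptor ligand gene KITLG at 0.425. MPP7 read 6.69 and 6.57 with CDK8 siRNA, against 10.23 and 10.17 with control siRNA. Over 4 arrays in 2 groups, this likeness is almost wholly a likeness in the size of the group difference, which ran from -3.38 for PAK2 to -3.93 for SOX4 in these 5 genes.

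Position on the chromosome was looked at through the nearest tested protein-coding gene on each side of each plus-end gene, taken from RefSeq order. These 18 neighbours held 6 genes called higher, 5 called lower and 7 not called, where 49.5% of all tested genes were called. The neighbour of MAPRE1 on the lower-coordinate side is DNMT3B, a de novo DNA methyltransferase gene. DNMT3B read 6.58 and 6.57 on the CDK8 siRNA arrays, against 8.0 and 7.94 on the control siRNA arrays, and fell by 1.40 on the log2 scale (standard error 0.070, adjusted p = 9.38e-05 by limma). On the other side of MAPRE1, BPIFB3 lay near the filter level at 0.18 ± 0.070 and did not pass (adjusted p = 0.0882 by limma). Beside CLIP1, the endosomal sorting gene VPS33A rose by 0.77 ± 0.069 (adjusted p = 4.77e-04 by limma). Some neighbours did not share the direction of the gene beside them. DTNA, which encodes a dystrobrevin and lies beside MAPRE2, fell by 0.41 ± 0.082 (adjusted p = 0.00931 by limma), a call lost without CDK8 siRNA replicate 1 and without either control siRNA array. DPYSL5, beside MAPRE3, fell by 0.81 ± 0.087 (adjusted p = 9.44e-04 by limma), though MAPRE3 itself was not called. TMEM214, on the other side of MAPRE3, rose by 0.405 ± 0.087 (adjusted p = 0.0115 by limma). The largest difference among the 18 was that of the kinase gene TEC beside SLAIN2, at 2.02 ± 0.108 (adjusted p = 1.12e-04 by limma). The neighbours were named after their values were seen.

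The other genes of microtubule biology were taken as 7 lists, which hold 199 genes and none of the plus-end genes above. Among 156 tested genes 42 were called higher, 55 lower and 59 not at all, so 62.2% were called beside 49.5% of all tested genes, 23.1% higher and 26.4% lower. Their median difference was -0.09, against 0.005 for all genes tested. Without CDK8 siRNA replicate 1 the lists gave 20 higher and 36 lower calls, and leaving out CDK8 siRNA replicate 2 gave 23 and 39. Leaving out control siRNA replicate 1 gave 19 and 31, and leaving out control siRNA replicate 2 gave 17 and 32. Fewer of all tested genes were called in each of these fits as well. No test compares a list with other genes.

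Other plus-end and end-binding partners split in both directions, with 8 of 28 higher, 9 lower and 11 not passing (median -0.05). CLIP4, a CAP-Gly relative of CLIP1, rose 2.27-fold (1.18 ± 0.091, adjusted p = 3.00e-04 by limma). The cortical anchor gene PHLDB2, whose product holds CLASP proteins near focal adhesions, fell 2.05-fold (-1.04 ± 0.083). CDK5RAP2, a centrosomal protein that binds EB1, fell 1.87-fold (-0.90 ± 0.084). Named after its value was seen, the end-binding partner gene GTSE1, which stabilises microtubules in mitosis, fell by 0.52 ± 0.068 (adjusted p = 0.00196 by limma).

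Genes of dynactin, the dynein motor and its LIS1 regulators were called higher in 12 of 27 cases, lower in 6 and neither in 9 (median 0.16). The surplus of higher calls was not seen without CDK8 siRNA replicate 1, with 3 higher and 3 lower, or without CDK8 siRNA replicate 2, with 5 and 5. Leaving out control siRNA replicate 1 gave 6 and 2, and leaving out control siRNA replicate 2 gave 4 and 3. The largest of the 27 differences in size was that of SPDL1, which recruits dynein to kinetochores and fell 3.22-fold (-1.69 ± 0.073, adjusted p = 6.99e-05 by limma). The dynein light chain genes DYNLT3 and DYNLL1 went opposite ways, with DYNLT3 at 1.06 ± 0.10 and DYNLL1 at -0.77 ± 0.078. PAFAH1B1, which encodes LIS1 and was named after its value was seen, stood at 0.09 ± 0.081 and did not pass (adjusted p = 0.407 by limma).

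Tubulins and their folding cofactors held 6 higher and 9 lower calls among 25 genes, with 10 not called (median -0.12). TUBG1, the gamma-tubulin of nucleation sites, fell 2.01-fold (-1.01 ± 0.120), and the cofactor genes TBCD and ARL2, which act together on the tubulin dimer, fell 2.05-fold (-1.04 ± 0.092) and 1.54-fold (-0.62 ± 0.071). TUBG1 did not pass once CDK8 siRNA replicate 1 or replicate 2 was left out (adjusted p of 0.0537 and 0.0604 by limma). Tubulin genes are close in sequence, and signal shared between their probes was not tested.

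**Figure D3:**
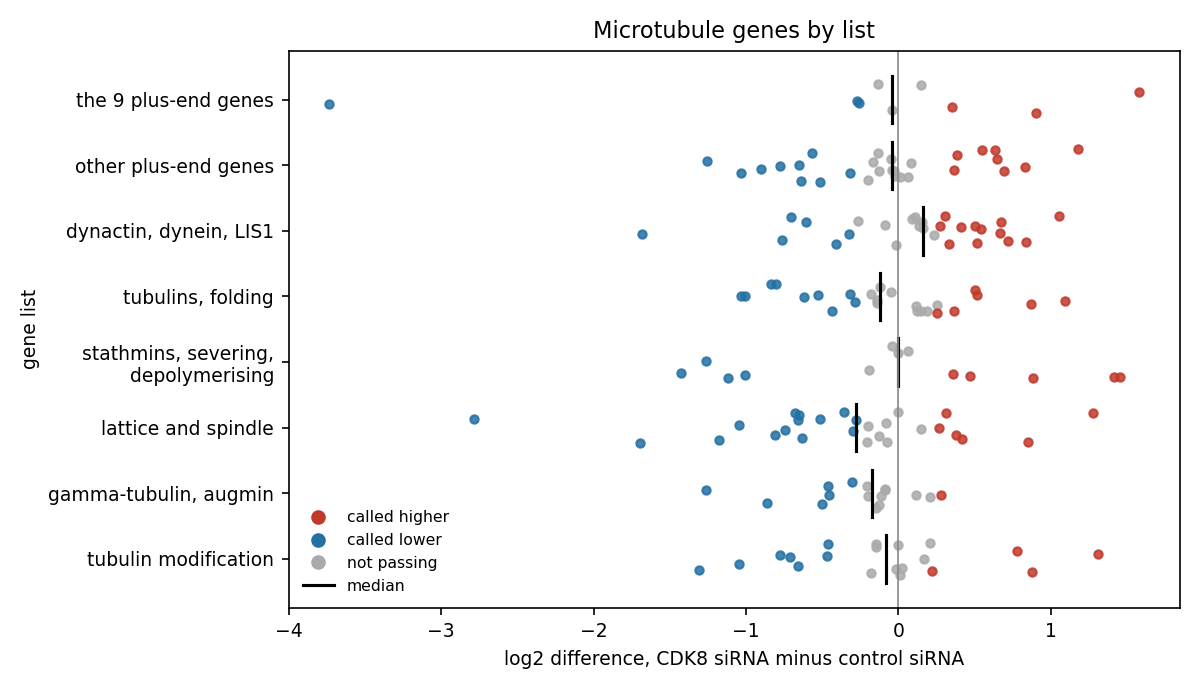
Log2 difference of CDK8 siRNA minus control siRNA (horizontal axis) of every tested gene in the plus-end genes and the 7 microtubule lists (vertical axis); each point is a gene, coloured by its limma call at an adjusted p under 0.05, with vertical jitter and a black bar at the list's median. MAPRE1 at -3.74 lies below every gene of the 7 lists, the lowest of which is HMMR at -2.79, and each list holds calls in both directions.

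Stathmins, severing enzymes and their relatives, and depolymerising kinesins showed large calls both ways, with 5 of 13 higher, 4 lower and 4 not passing (median -0.005). FIGNL1 and KATNAL1, of the AAA ATPase families that hold the severing enzymes fidgetin and katanin, rose 2.74-fold (1.46 ± 0.080) and 2.67-fold (1.42 ± 0.069). KIF24, a depolymerising kinesin of centrioles, fell 2.40-fold (-1.27 ± 0.073, adjusted p = 1.36e-04 by limma). The other 3 that fell were also depolymerising or length-limiting kinesins, named after their values were seen. They were KIF18A (-1.43 ± 0.093), KIF2A (-1.12 ± 0.083) and KIF2C (-1.01 ± 0.086), the last of which is carried to tips by EB1.

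Lattice-binding and spindle proteins were called lower more than higher, with 6 of 27 higher, 14 lower and 7 not passing (median -0.28). HMMR, a spindle pole protein, fell 6.89-fold (-2.79 ± 0.103, adjusted p = 4.94e-05 by limma), and DLGAP5, which bundles kinetochore fibres, fell 3.24-fold (-1.70 ± 0.092). CAMSAP2, which caps the opposite, minus end of microtubules, rose 2.42-fold (1.28 ± 0.080). Genes of mitosis are part of this list, and the part of cell cycle phase in its counts was not tested.

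The gamma-tubulin complex and augmin start new microtubules. Their list was called higher in 1 of 16 genes and lower in 6, while 9 did not pass (median -0.17). It also holds associated centrosomal genes, among them NEDD1 and NINL, both called lower, and AKAP9 and PCNT, neither of which passed. MZT1, a small subunit of the gamma-tubulin complex, fell 2.40-fold (-1.27 ± 0.113), TUBGCP5 fell 1.82-fold (-0.86 ± 0.086) and the augmin gene HAUS1 1.42-fold (-0.51 ± 0.079, adjusted p = 0.00365 by limma). HAUS1 did not pass once CDK8 siRNA replicate 1 or 2 or control siRNA replicate 2 was left out (adjusted p of 0.0516, 0.0579 and 0.0538 by limma).

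Tubulin-modifying enzymes and their partners held 4 higher and 7 lower calls among 20 genes, with 9 not called (median -0.08). Many of them, though not all, change the tails that plus-end and motor proteins read. TTLL7, which adds glutamate chains to tubulin, rose 2.48-fold (1.31 ± 0.096), whereas TTLL5, of the same activity, fell 2.48-fold (-1.31 ± 0.074) and TTLL12 fell 2.06-fold (-1.05 ± 0.075). Adjusted p-values of these 3 genes ran from 1.28e-04 to 2.58e-04 in limma.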

How the data were processed

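Total RNA of HCT116 cells was labelled with biotin and hybridised to whole-transcript arrays. The authors deposited log2 signals from RMA, which the submitters' processing notes credit to Expression Console. No version or setting is given in the sources used for this work. RMA compresses differences at low signal and assumes similar distributions on all arrays. Median signals over 67528 transcript clusters were 4.32 and 4.31 on the CDK8 siRNA arrays and 4.24 and 4.24 on the control siRNA arrays. The 2995 other rows were left out.

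Symbols came from the platform annotation, and 23777 of 23781 single-symbol clusters matched RefSeq (GRCh38.p14). The brightest cluster was used per gene. Genes were tested where the mean of the 4 arrays reached 4.28, the median of all clusters. The fit was lmFit and eBayes of limma 3.58.1 in R 4.3.3, with Benjamini-Hochberg adjustment over 13956 genes at a threshold of 0.05. It was also run on simulated data with independent noise and a small part of the genes changed. That run is no check of the calls here, where 49.5% of tested genes were called. The number of arrays limits the precision.

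The plus-end genes, lists, tests and alternatives were chosen with earlier results of these data known. Named genes were the plus-end genes, CDK8, up to 3 called genes per list with the smallest p and the 5 genes nearest to MAPRE1; others are given as such. Neighbours and antisense partners were added later. Marker lists served as a check of cell type. Figures were drawn with matplotlib 3.10.9.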

Additional observations from a re-analysis of the deposited data

How the results depend on the processing

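Leaving out 1 array leaves 1 residual degree of freedom, and the lone array of a group is then assumed to vary like the other group. Genes called then numbered 1377 to 2097 higher and 1745 to 2414 lower, against 3229 and 3679 with all arrays, and the 7 microtubule lists together gave 17 to 23 higher and 31 to 39 lower. By list, the ranges of genes called higher and lower were 3 to 6 and 5 to 8 for the other plus-end genes, 3 to 6 and 2 to 5 for dynactin and dynein, 1 to 3 and 3 to 4 for tubulins, 3 to 4 and 4 for severing and depolymerising enzymes, 2 to 3 and 8 to 10 for lattice and spindle proteins, 0 and 2 to 3 for gamma-tubulin and augmin, 3 and 4 to 6 for modifying enzymes. The log2 differences of the plus-end genes ranged over -3.835 to -3.635 for MAPRE1, 1.540 to 1.620 for MAPRE2, 0.115 to 0.175 for MAPRE3, -0.190 to -0.080 for CLASP1, -0.110 to 0.020 for CLASP2, 0.770 to 1.030 for CLIP1, -0.330 to -0.190 for CKAP5, 0.275 to 0.425 for SLAIN2, -0.310 to -0.240 for DCTN1. Centring arrays on their medians, which lowers the median of all genes to -0.07, gave 1.51 for MAPRE2, 0.07 for MAPRE3, -0.21 for CLASP1, -0.34 for CKAP5 and -0.35 for DCTN1, and 0 gamma-tubulin and augmin genes called higher. Raising the filter to the 75th percentile (6.17) tested 8479 genes, without MAPRE3, and left 4 genes of the tubulin-modifying list called lower. Without a filter 22411 genes were tested, of which 29.8% were called. The replicate numbers are shared by both groups, but with 2 pairs they do not show a pairing (correlation of same-numbered deviations 0.121). With them as a replicate block 2838 genes were called higher and 3300 lower, 3 of the latter from the gamma-tubulin and augmin list. Both groups hold both numbers, so the block could not move the differences and is no check of them. It lowered the standard error of each plus-end gene, from 0.095 to 0.06 for MAPRE1 and from 0.076 to 0.05 for MAPRE2. CKAP5 was not called with this block. The cause of these shifts was not tested, beyond the fewer genes or arrays in a fit. Quantile normalization, eBayes with a trend or robust settings, and the mean of all clusters kept each such count within 1.5 times. Quantile normalization also kept each plus-end difference within its replicate spread. The eBayes settings and the mean of all clusters could not move these differences, so they are no check of them. Each plus-end gene had 1 cluster, so no other cluster could be tried.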
